A study of Mus musculus with 18 samples.

Results

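The genes of the tight and adherens junctions were read in 18 RNA-seq libraries of mpkCCD cells. The list was fixed by symbol and held 35 genes of the 24111 rows of the count table, and all 35 had a row (Patj was listed there under its older symbol, Inadl). It covered 10 claudins, 6 other tight junction membrane proteins, 4 scaffold proteins, 8 polarity proteins and 7 adherens junction proteins. These groups, with Marveld1 among the 6, are those of the list, and where each protein sits in these cells was not tested.

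mpkCCD11 cells are an immortalised mouse line of the renal cortical collecting duct. All cells were grown on permeable supports to a transepithelial resistance of at least 5 kΩ·cm2, in medium with 2% serum and dexamethasone among its hormones. They then spent 24 h without serum. The 9 control libraries came from cells left untreated, and the 9 dDAVP libraries from cells given 0.1 nM dDAVP (desmopressin, a vasopressin analogue selective for the V2 receptor) in the same serum-free medium for another 24 h. Libraries are numbered 1 to 9 in each group. The labels do not say what a number stands for, nor whether the replicates were separate cultures. Earlier work on these data had shown that the numbers 1 to 3, 4 to 6 and 7 to 9 form sets with unlike profiles, so all values below are also given by set, named the first, the second and the third set.

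Tight junctions seal the space between neighbouring epithelial cells near the apical surface. Claudins form the strands of the seal and decide which ions pass between the cells. The MARVEL proteins occludin, tricellulin (Marveld2) and Marveld3 join the strands, and the ZO and cingulin scaffolds tie them to actin. Below them, cadherins hold the cells together through catenins, and the PAR, CRUMBS and LGL polarity proteins keep the apical and lateral membranes apart. The collecting duct is known for claudins 3, 4, 7 and 8 and for a tight, high-resistance epithelium.

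The promoters of 4 genes are shown, chosen by their results. Cldn3, Cldn4 and Cldn7 were among the most abundant claudins and were called higher in libraries 7 to 9 than in 1 to 3. The Cldn7 call was lost with another scaling or without any 1 of 9 libraries, as given below. The fourth, Marveld1, had the lowest adjusted p of the list for dDAVP. Each run is the 250 bases upstream of the first annotated start, from RefSeq on GRCm38.p6. They lie at chr5:134985964-134986213 (plus strand, Cldn3), chr5:134946935-134947184 (minus strand, Cldn4), chr11:69964529-69964778 (plus strand, Cldn7) and chr19:42147139-42147388 (plus strand, Marveld1). Capitals mark TGACG or its complement CGTCA, the half-site of the cAMP response element, and CAGGTG or its complement CACCTG, an E-box to which Snail and ZEB repressors can bind.
Cldn3: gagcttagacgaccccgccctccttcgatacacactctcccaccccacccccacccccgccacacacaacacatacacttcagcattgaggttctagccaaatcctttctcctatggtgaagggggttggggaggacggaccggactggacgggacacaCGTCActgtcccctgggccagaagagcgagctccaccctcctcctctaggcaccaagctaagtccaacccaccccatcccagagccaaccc
Cldn4: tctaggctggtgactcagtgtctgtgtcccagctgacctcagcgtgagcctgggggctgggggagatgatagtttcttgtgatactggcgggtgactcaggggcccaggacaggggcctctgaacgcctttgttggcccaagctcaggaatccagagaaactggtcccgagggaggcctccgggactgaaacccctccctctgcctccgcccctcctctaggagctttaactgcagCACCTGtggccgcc
Cldn7: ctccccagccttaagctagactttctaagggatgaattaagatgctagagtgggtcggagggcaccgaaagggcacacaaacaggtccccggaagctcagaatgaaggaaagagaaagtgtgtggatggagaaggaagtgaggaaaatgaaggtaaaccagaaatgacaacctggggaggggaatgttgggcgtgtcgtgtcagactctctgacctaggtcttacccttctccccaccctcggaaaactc
Marveld1: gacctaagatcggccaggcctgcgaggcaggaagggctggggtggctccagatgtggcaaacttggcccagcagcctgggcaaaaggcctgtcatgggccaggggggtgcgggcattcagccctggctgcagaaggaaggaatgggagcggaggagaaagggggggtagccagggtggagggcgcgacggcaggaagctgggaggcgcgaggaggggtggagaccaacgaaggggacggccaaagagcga

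The Cldn3 window held 1 half-site and the Cldn4 window held 1 E-box, while the Cldn7 and Marveld1 windows held neither. A window at another Cldn7 start (chr11:69965171-69965420, not printed) held 2 half-sites and 2 E-boxes. Of the 35 genes, 26 had promoters in the RefSeq table, with 41 start sites. On both strands, TGACG was found in 11 of the 41 windows (26.8%) and in 17.8% of 32851 windows of all genes. CAGGTG was found in 15 of 41 (36.6%) against 17.2%, and the GC box GGGCGG in 28 of 41 (68.3%) against 32.7%. AACCNGGTT, the Grainyhead motif, was in 0 of 41 against 0.24%. Several windows belong to 1 gene, and a match is a run of letters only. Cldn4 (chromosome 5, 134945119 to 134946934) and Cldn3 (chromosome 5, 134986214 to 134987472) are neighbours that point away from each other, 39.3 kb apart.

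Library totals were 22.2 to 105.9 M counts, so a gene with 0 counts could have held up to 3 counts, or 0.028 to 0.135 CPM (counts scaled to library size). That covers counting error only. Summed over the list, junction genes made up 0.492% to 0.726% of all counts in the first set, 0.0771% to 0.263% in the second and 0.547% to 1.18% in the third. Library dDAVP 6 was lowest and also stood apart in its normalisation factor, 0.306 against 0.547 to 3.16 in the others. The line's identity was checked on 13 principal cell markers, of which 12 reached 1 FPKM (a level scaled by gene length and library total) in some library. Krt18 and Krt8, the keratins of simple epithelia, had medians of 3802 and 649 FPKM, and Krt19 of 548 FPKM, the highest of the list. Aqp3, Scnn1b and Scnn1g had medians of only 0.0901, 0.300 and 0.157 FPKM, and Elf5 had at most 1 count. Summed principal cell markers spanned 790.3 to 8489 FPKM in control and 433 to 9246 FPKM in dDAVP libraries. Of 7 fibroblast markers 0 reached 1 FPKM (sums up to 0.239 FPKM in control and 0.203 FPKM with dDAVP), nor did any of 5 endothelial (at most 0.0273 FPKM) or 6 proximal tubule markers (at most 0.861 FPKM). Some markers of other types did reach it: 3 of 6 of intercalated cells (sums 5.67 to 23.7 FPKM in control and 4.49 to 37.0 FPKM with dDAVP), 3 of 6 of the thick ascending limb (up to 1.27 and 10.4 FPKM, with Umod up to 8.49 FPKM), 1 of 4 of podocytes (Podxl; sums 0.295 to 5.76 and 0.0923 to 20.2 FPKM) and 1 of 4 of leukocytes (Cd68; sums 0.459 to 10.7 and 0 to 42.3 FPKM). Their part in the results was not tested. Aqp2, the vasopressin-regulated water channel and the check of the treatment, was 9.95 to 205 FPKM in control and 35.01 to 2542 FPKM in dDAVP libraries. These ranges overlap and pool the sets. In the edgeR fits over all 18 libraries without other terms, and within the second and the third set, 0 genes had an adjusted p under 0.05. The check was thus not called in those fits either. In the edgeR fit with the set as a term, 1 of 11 tested principal cell markers was called, higher with dDAVP, against 0.079% of all genes. Within the first set 1 of 10 was called, also higher, against 0.456% of all genes.

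Claudin RNA in these cells was mostly Cldn3 and Cldn7. Cldn3 (chromosome 5), which encodes a sealing claudin, had the highest FPKM of all claudins in 13 of the 18 libraries and Cldn7 (chromosome 11, 69964779 to 69967885), a basolateral and junctional claudin of the distal nephron, in the other 5. Both together made up 58.2% to 95.4% of the summed FPKM of the 23 claudin genes in the table (median 77.7%). With Cldn4, Cldn6 and Cldn8 the share was 91.8% to 98.5%. These are levels per gene length and can be compared between genes.

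**Figure D1:**
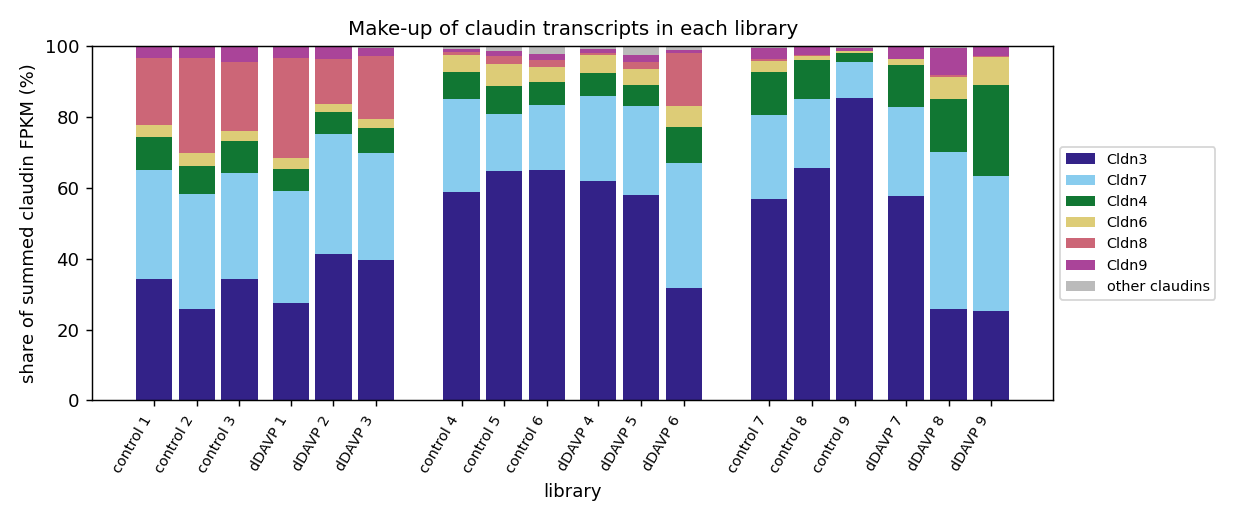
Share of the summed claudin FPKM (vertical axis, %) that each claudin took in each of the 18 libraries (horizontal axis), without error bars because each bar is 1 library. Cldn3 and Cldn7 filled 58.2% to 95.4% of every bar, and the band of Cldn8 is broad in libraries 1 to 3 and in dDAVP 6 (14.7%), and at most 2.27% in the other 11.

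Cldn3 stood at 169.9, 146 and 203 FPKM in control libraries 1 to 3 and at 152, 204 and 228 FPKM in dDAVP libraries 1 to 3. The second set had 239.7, 365 and 305 FPKM in control and 209, 291 and 17.9 FPKM with dDAVP. The third set had 1001, 3346 and 4498 FPKM in control and 2633, 401 and 459 FPKM with dDAVP. In FPKM the lowest value was in dDAVP 6, and all 6 libraries of the last set lay above all others. FPKM is not corrected for the normalisation factors, and in normalised CPM the sets overlapped. On that scale dDAVP 8 and dDAVP 9 had 160 and 210 CPM, against 195 to 412 CPM in the first set. Control 7 had 544 CPM, below the 553 CPM of control 4. The Cldn3 gene overlaps the antisense gene Wbscr25 in the annotation, and the strand setting of the counting is not given in the sources used here, so its reads cannot be fully assigned.

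Cldn7 was 151, 184 and 178 FPKM in control and 176, 165 and 174 FPKM in dDAVP libraries 1 to 3. The second set gave 107, 89.9 and 85.4 FPKM in control and 80.4, 127 and 19.9 FPKM with dDAVP, and the third 416, 984 and 524 FPKM in control and 1146, 689 and 694 FPKM with dDAVP. Control and dDAVP values overlapped in all 3 sets. Within a library Cldn3 exceeded Cldn7 in 4 of 6 libraries of the first set (median ratio 1.13), 5 of 6 of the second (2.45) and 4 of 6 of the third (2.35), so their order was not fixed.

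Cldn4, which acts as an anion-selective or cation-sealing claudin in the collecting duct, ranked below them. Its lowest, median and highest FPKM were 31.5, 43.8 and 54.2 in the first set, then 5.69, 30.2 and 44.3 in the second, and 136, 350.3 and 570.3 in the third. Cldn8, which recruits Cldn4 to the junction in collecting duct cells, went the other way. It was 94.2, 152 and 115 FPKM in control and 157, 63.5 and 103 FPKM in dDAVP libraries 1 to 3, and in the other 12 libraries it lay between 1.65 and 12.8 FPKM with no overlap. Its share of claudin FPKM was 12.9% to 28.3% in the first set, 0.63% to 14.7% in the second and 0.032% to 0.65% in the third. Relative to Cldn8, Cldn3 was 0.959 to 3.204 times as abundant in the first set and 39.7 to 2417 times in the third.

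Cldn6, an embryonic claudin of low abundance in adult kidney, was 3.46 to 141 FPKM with a median of 19.7. Cldn23, a claudin of other barrier epithelia, was at most 0.182 FPKM in libraries 1 to 3 and 3.5 to 30.7 FPKM in libraries 7 to 9. It ranged in the second set from 1.87 to 8.43 FPKM apart from 0.0396 FPKM in dDAVP 6. Cldn12 had a median of 1.11 FPKM. Cldn1 had at most 182 counts, in control 6, with 175 in dDAVP 5, and Cldn2, the cation pore of the proximal tubule, had at most 12 counts in any library. Cldn10, a thick ascending limb and proximal claudin, had 0 counts in all 18 libraries. Of the 13 claudins outside the list, Cldn9 alone reached a median above 0 (16.1 FPKM, up to 154 FPKM in dDAVP 7), and Cldn16 and Cldn19 of the thick ascending limb peaked at 1.51 and 1.00 FPKM.

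**Figure D2:**
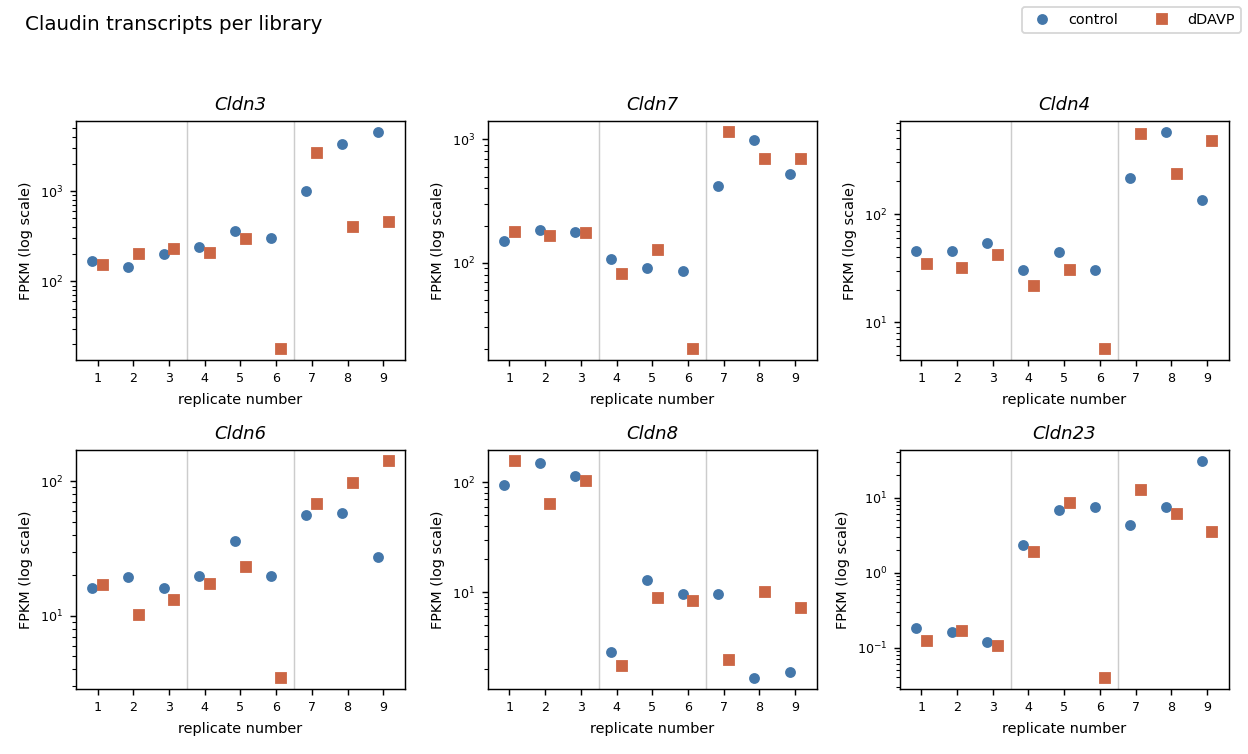
FPKM (log scale) of 6 claudins against replicate number, circles for control and squares for dDAVP, 1 point a library, with grey lines between the sets. Cldn3, Cldn7 and Cldn4 sit highest in libraries 7 to 9, Cldn8 in libraries 1 to 3, and dDAVP 6 is the lowest square for Cldn3, Cldn7, Cldn4, Cldn6 and Cldn23.

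The first question of the design was whether dDAVP changed these transcripts. In the comparison of all 18 libraries without other terms, 0 of the 32 junction genes that passed the filter on low counts were called at an adjusted p under 0.05 (edgeR quasi-likelihood test with Benjamini-Hochberg adjustment over all genes), against 0% of all 10121 genes. Cldn1, Cldn2 and Cldn10 did not pass the filter. At an unadjusted p under 0.05 there was 1 of 32, Marveld1, against 2.15% of all genes. With the set as a term, which removes differences between the sets, 0 of 32 were called against 0.079% of all genes. Unadjusted p lay under 0.05 for 2 of 32, Marveld1 and Ctnna1, against 6.03% of all genes. The median log2 fold change of the 32 was -0.03 and that of all genes 0.02.

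Within sets the picture was similar. The first set had 0 of 31 tested junction genes called, against 0.456% of all genes (34 higher and 7 lower), and 5 of 31 (Marveld1, Cdh1, Prkci, Ctnnb1 and Epcam) had an unadjusted p under 0.05, against 10.5%. Without dDAVP 1 that set had 4 called, Marveld1 (adjusted p 0.0190), Cdh1 (0.0333), Cxadr and Tjp1, among 774 of all genes tested. The second set had 0 of 33 called against 0% of all genes, and 0 of 33 with an unadjusted p under 0.05 against 4.61%. The third had 0 of 32 called against 0%, and 0 of 32 with an unadjusted p under 0.05 against 5.19%. DESeq2 called 1 junction gene in libraries 1 to 3, Marveld1, among 123 of 8991 genes. It called 0 in libraries 4 to 6 (29 of 10387 genes), 0 in libraries 7 to 9 (94 of 11367) and 0 in the other fits. A test of whether the dDAVP difference itself varied between sets called 0 of 32 junction genes and 0% of all genes, with Epcam lowest at an adjusted p of 0.825, and 0 of 32 had an unadjusted p under 0.05 against 6.63%.

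**Figure D3:**
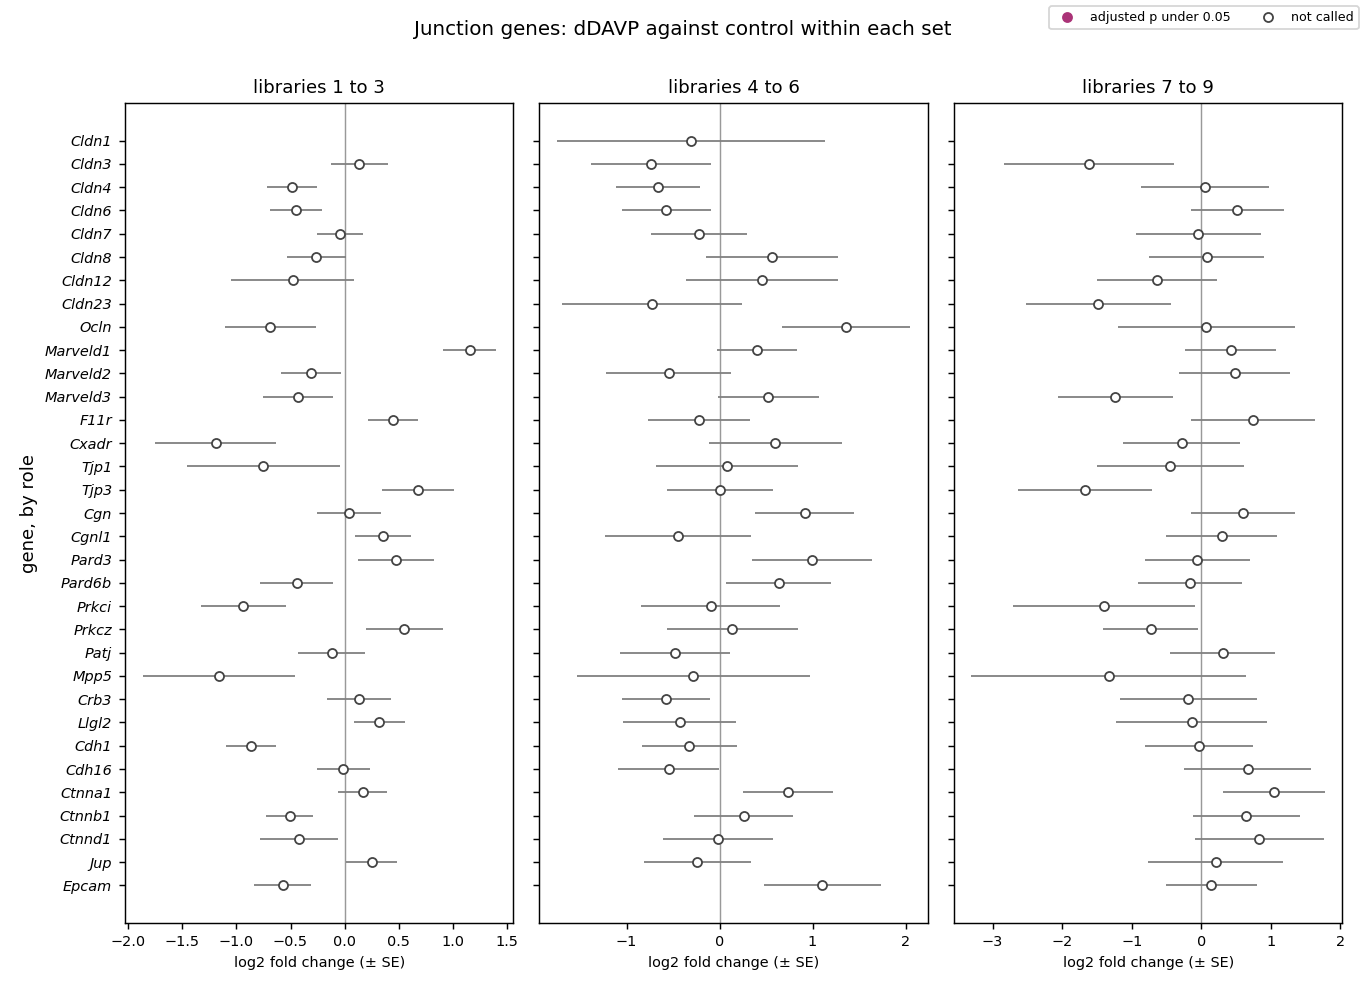
The log2 fold change of dDAVP against control (horizontal axis, bars ± SE from edgeR) for each tested junction gene, in libraries 1 to 3, 4 to 6 and 7 to 9 (3 against 3 each); the horizontal scales differ. No point is filled, since 0 genes had an adjusted p under 0.05, and the bars are narrowest in libraries 1 to 3.

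Marveld1 (chromosome 19, 42147400 to 42151703), a MARVEL-domain membrane protein, had the largest positive difference in libraries 1 to 3. Its TMM-normalised CPM were 26.2, 34.3 and 38.3 in control and 68.8, 87.8 and 73.3 with dDAVP, groups that did not overlap. The log2 fold change was 1.15 (SE 0.24, edgeR adjusted p 0.0750). A fit with replicate numbers as a block, a pairing that the labels do not give, gave 1.16 (SE 0.29, adjusted p 0.0332), which passes the threshold. The second set had 30.9, 24.2 and 24.0 CPM under control and 40.5, 36.8 and 31.3 CPM under dDAVP, again without overlap (log2 fold change 0.41, SE 0.42). The third had 26.5, 54.0 and 32.8 CPM under control and 44.3, 56.1 and 53.8 CPM under dDAVP, which overlapped (log2 fold change 0.42, SE 0.65). Over all libraries with the set term the log2 fold change was 0.71 (SE 0.25, adjusted p 0.815). On the FPKM scale, which is not corrected for the low normalisation factor of dDAVP 6, the groups of libraries 4 to 6 overlapped, with 5.50, 9.61 and 7.21 in control and 8.64, 11.7 and 3.12 with dDAVP.

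Cdh1 (chromosome 8, 106603351 to 106670246), which encodes E-cadherin, had the clearest negative difference in libraries 1 to 3. Its normalised CPM were 2323, 2603 and 2240.5 in control and 1376, 1570.3 and 1170.4 with dDAVP, without overlap, for a log2 fold change of -0.86 (SE 0.23, edgeR adjusted p 0.1992). Ctnnb1, which encodes beta-catenin, had 1699.8, 1743 and 1793 CPM under control and 1315, 1104 and 1420.5 CPM under dDAVP, also without overlap (log2 fold change -0.51, SE 0.22, adjusted p 0.440). Both genes overlapped between the groups in the other two sets. Neither passed the edgeR test in any set with all its libraries. In the first set limma voom called both (Cdh1 -0.79, adjusted p 0.0237, and Ctnnb1 -0.66, adjusted p 0.0396), and edgeR without dDAVP 1 called Cdh1 (adjusted p 0.0333). Both settings called many more of all genes, 634 of 8991 with voom and 774 without dDAVP 1, against 41 with edgeR on the whole set.

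Ctnna1, the alpha-catenin that links cadherin complexes to actin, lay above control in every dDAVP library of the last 2 sets. Its normalised CPM were 92.2, 98.0 and 70.2 in control and 98.1, 168 and 184 with dDAVP in libraries 4 to 6, then 101, 47.3 and 80.2 in control and 124, 138 and 231 with dDAVP in libraries 7 to 9. The lowest dDAVP and highest control values of libraries 4 to 6 all but met, and in FPKM those groups overlapped. Both scales overlapped in the first set, and with the set term its log2 fold change was 0.71 (SE 0.27, edgeR adjusted p 0.815). Epcam, an epithelial adhesion molecule that stabilises claudins, had 249, 269 and 272 CPM under control and 309, 400.0 and 1021 CPM under dDAVP in libraries 4 to 6, where the highest value was that of dDAVP 6. Its log2 fold change there was 1.11 (SE 0.63) and in libraries 1 to 3 it was -0.57 (SE 0.26).

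Counting groups that did not overlap in normalised CPM, 3 of 32 junction genes were higher with dDAVP in libraries 1 to 3 (Marveld1, Cgnl1 and Llgl2) against 7.11% of all genes, and 3 were lower (Cldn6, Cdh1 and Ctnnb1) against 6.93%. The second set had 3 higher (Marveld1, Ctnna1 and Epcam) against 5.27%, and 0 lower against 4.45%. The third had 1 higher (Ctnna1) against 4.58%, and 0 lower against 4.05%. Over all 18 libraries 0 were separated, as for all genes. These shares lie near those of all genes or rest on few genes.

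The claudins that dominate showed no called difference with dDAVP. With the set term the log2 fold change was -0.66 (SE 0.51) for Cldn3, -0.31 (SE 0.34) for Cldn4, -0.06 (SE 0.33) for Cldn7, -0.11 (SE 0.28) for Cldn6 and 0.17 (SE 0.35) for Cldn8. Where the errors were smallest, in the first set, it was 0.14 (SE 0.26) for Cldn3, -0.05 (SE 0.21) for Cldn7, -0.49 (SE 0.23) for Cldn4 and -0.26 (SE 0.27) for Cldn8. A difference of the size of these errors could not have been detected. Of the claudins tested there, 1 of 6 had a positive value, and of the 7 adherens junction genes 2 did, with medians of -0.36 and -0.42 against -0.01 for all genes. The other membrane proteins had 2 of 6 positive (median -0.37), the scaffolds 3 of 4 (0.20) and the polarity genes 4 of 8 (0.01). The adherens junction genes went the other way in the third set, with 6 of 7 positive (median 0.65), and with the set term, also 6 of 7 (0.16). Over the whole list 12 of 31 were positive with TMM (49.4% of all genes) or DESeq2 size factors, and 14 of 31 with library totals only. Of the other junction lists, 0 genes were called with dDAVP in libraries 1 to 3 or with the set term, out of 20 other tight junction genes, 18 other adherens junction genes and 6 desmosome genes with the set term.

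Libraries 7 to 9 divided across their labels. In control 8, control 9 and dDAVP 7, Crb3, the apical CRUMBS protein of epithelia, was at 308, 312 and 481 normalised CPM, and in control 7, dDAVP 8 and dDAVP 9 at 56.9, 59.9 and 69.8. Jup (plakoglobin, shared by adherens junctions and desmosomes) was at 921, 487 and 1323 CPM in the former and at 151, 239 and 258 CPM in the latter. Cldn3 was at 3152, 4907 and 2546 CPM in the former and at 544, 160.1 and 210.2 CPM in the latter. Cdh1 went the other way, at 44.9, 83.1 and 47.6 CPM in the former and at 156, 105.7 and 138 CPM in the latter. Over the 32 tested junction genes, the log2 CPM of 2 libraries correlated at r = 0.942 to 0.987 within the former, 0.941 to 0.9801 within the latter and 0.773 to 0.887 between them. Over all 10121 genes the division was less sharp, with 0.877 to 0.964, 0.813 to 0.922 and 0.743 to 0.851, so that some pairs across it were closer than some within it. These correlations are across genes of single libraries and are a description. The standard errors of dDAVP in this set, such as 0.65 for Marveld1, rest on these libraries. The fits kept every library with its label, and the source of the division was not tested. Whether each label in this set is right cannot be told from the files, and the dDAVP values of libraries 7 to 9, with the fits over all 18 libraries, hold only as far as these labels do.

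The sets differed far more than the treatments. Because the sets were recognised from these same data, the tests below describe the division and do not test it independently. Against libraries 1 to 3, libraries 4 to 6 had 19 of 32 junction genes called (edgeR with treatment as a term) against 55.9% of all genes. Of these 8 were higher, against 34.1% of all genes, and 11 lower, against 21.8%. Libraries 7 to 9 had 22 called against 63.7%, of which 11 were higher (39% of all genes) and 11 lower (24.7%). Between libraries 7 to 9 and 4 to 6, 16 were called against 48.2%, of which 9 were higher (28.1% of all genes) and 7 lower (20.1%). The shares called in either direction are close to those of all genes. The median log2 difference of all genes was 0.51, 0.54 and 0.31 in these comparisons, and that of the 32 junction genes 0.13, -0.16 and 0.50. With library totals in place of TMM factors the median of all genes became 0.52, 1.92 and 1.68 (with DESeq2 size factors 0.31, 0.35 and 0.30), so a small difference against libraries 7 to 9 can change sign with the scaling. Under all 3 scalings 5 genes stayed higher and 9 lower in libraries 4 to 6 against 1 to 3, 10 higher and 5 lower in 7 to 9 against 1 to 3, and 9 higher and 3 lower in 7 to 9 against 4 to 6.

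**Figure D4:**
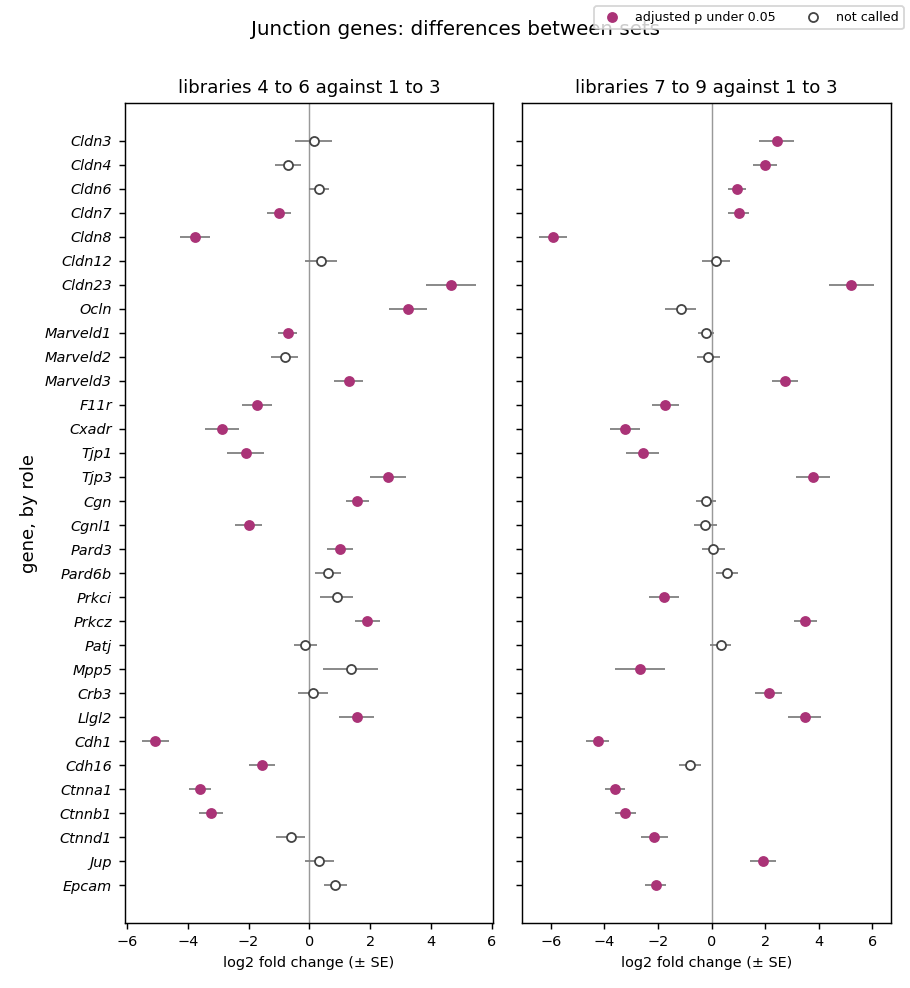
Log2 difference (horizontal axis, bars ± SE from edgeR, TMM scaling) of libraries 4 to 6 and of libraries 7 to 9 against libraries 1 to 3, for each of the 32 tested junction genes, with filled points for an adjusted p under 0.05. Cdh1, Ctnna1, Ctnnb1, Cldn8 and Cxadr are far to the left in both panels, and Cldn23, Tjp3 and Prkcz to the right.

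Among the claudins, Cldn8 fell by 3.76 on the log2 scale (SE 0.48, edgeR adjusted p 8.1e-07) from libraries 1 to 3 to libraries 4 to 6 and by 5.90 (SE 0.53, adjusted p 8.2e-08) to libraries 7 to 9. Cldn23 was higher by 4.66 (SE 0.82) and 5.21 (SE 0.84). Cldn3, Cldn4, Cldn6 and Cldn7 were higher in libraries 7 to 9 than in 1 to 3 by 2.44 (SE 0.66), 1.99 (SE 0.44), 0.94 (SE 0.34) and 1.01 (SE 0.41). The Cldn7 call was lost with DESeq2 size factors and without any 1 of 9 libraries, with an adjusted p up to 0.276, and the Cldn6 call without control 8, dDAVP 2, dDAVP 7 or dDAVP 9. In all, 5 of 7 tested claudins were higher and 1 lower (39% and 24.7% of all genes), with a median of 1.01 against 0.54 for all genes. Against the first set, Cldn3, Cldn4 and Cldn6 in the second had values of 0.14, -0.70 and 0.31 that did not pass the test. Cldn4 passed it there with DESeq2 (-0.91, adjusted p 0.0478) and without dDAVP 7, and the sign of Cldn3 turned with DESeq2 size factors. Cldn7 was called lower in the second set than in the first by edgeR, but not under all 3 scalings. That call was lost without any 1 of 9 libraries, with an edgeR adjusted p up to 0.0810.

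The other membrane proteins of the tight junction split. F11r, or JAM-A, an immunoglobulin-like adhesion protein and the most abundant of them, was 53.0, 57.6 and 71.8 FPKM in control and 79.3, 73.2 and 104 FPKM in dDAVP libraries 1 to 3. The second set gave 29.5, 23.5 and 15.8 FPKM under control and 26.9, 18.9 and 5.82 FPKM under dDAVP, and the third 84.1, 13.7 and 20.7 FPKM under control and 7.07, 119.8 and 195 FPKM under dDAVP. It was lower by TMM in both later sets, with log2 differences of -1.73 (SE 0.49) and -1.72 (SE 0.49), but in libraries 7 to 9 not under all 3 scalings, and the FPKM of that set overlapped those of the first. Cxadr, the CAR adhesion protein, had medians of 18.2, 1.91 and 5.36 FPKM in the 3 sets and was lower in both (-2.88, SE 0.56, and -3.22, SE 0.56). Ocln, occludin, had a median of 5.31 FPKM in libraries 4 to 6 against 0.478 and 0.72 FPKM in the others. It was higher in libraries 4 to 6 than in 1 to 3 by 3.23 (SE 0.62), and lower in libraries 7 to 9 than in 4 to 6 (-4.39, SE 0.64). Marveld3 rose from a median of 3.26 to 34.4 FPKM in libraries 7 to 9 (2.73, SE 0.49), while Marveld2, tricellulin, was not called in any of the 3 comparisons by TMM. In libraries 4 to 6 against 1 to 3 it was called lower with DESeq2 (-0.99, adjusted p 0.0345) and without control 5, control 9 or dDAVP 9, and with library totals it was called higher in libraries 7 to 9 than in either other set. Marveld1 was called lower in libraries 4 to 6 than in 1 to 3 (-0.72, SE 0.30), a call lost without any 1 of 9 libraries.

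The scaffolds changed in opposite directions. Tjp3, or ZO-3, was the most abundant of them over all libraries, with a median of 13.4 FPKM. In libraries 1 to 3 its median of 2.09 FPKM lay below those of Cgnl1 (2.53) and Tjp1 (2.15). It had 1.53, 1.01 and 2.03 FPKM in control and 2.15, 2.63 and 2.71 FPKM in dDAVP libraries 1 to 3. The second set gave 10.3, 11.7 and 18.1 FPKM under control and 15.6, 21.1 and 1.46 FPKM under dDAVP, and the third 47.7, 62.6 and 127 FPKM under control and 57.8, 15.2 and 25.8 FPKM under dDAVP. Its differences were 2.58 (SE 0.59) and 3.78 (SE 0.64). In FPKM all libraries after the first set lay above it except dDAVP 6, whose low normalisation factor (0.306) that scale does not correct for. The Tjp3 gene overlaps Apba3 on the opposite strand, so part of its reads may belong to that gene. Tjp1, or ZO-1, had medians of 2.15, 0.517 and 0.754 FPKM and was lower in both later sets by TMM (-2.10, SE 0.61, and -2.57, SE 0.62), the second not under all 3 scalings. Cgn, cingulin, was higher in libraries 4 to 6 than in 1 to 3 (1.58, SE 0.38) and its paralog Cgnl1 lower (-2.001, SE 0.45). Their values in libraries 7 to 9 against 1 to 3 were -0.21 (SE 0.37) and -0.24 (SE 0.43), neither called. Libraries 7 to 9 against 4 to 6 gave -1.79 (SE 0.38, not under all 3 scalings) for Cgn and 1.76 (SE 0.44) for Cgnl1.

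Of the 8 polarity genes, 3 were higher and 0 lower in libraries 4 to 6, and 3 higher and 2 lower in libraries 7 to 9, against libraries 1 to 3. Of all genes 34.1% were higher and 21.8% lower in the former comparison, and 39% and 24.7% in the latter. Crb3 was 20.3, 44.1 and 26.4 FPKM in control and 32.6, 34.6 and 34.8 FPKM in dDAVP libraries 1 to 3, then 21.0, 74.5 and 58.2 FPKM under control and 29.3, 47.6 and 6.82 FPKM under dDAVP in the second set. The third gave 114, 358 and 312 FPKM under control and 544, 164 and 167 FPKM under dDAVP, all above the other sets in FPKM. That scale is not corrected for the normalisation factors, which were 2.32, 3.16 and 2.76 in control 7, dDAVP 8 and dDAVP 9. With TMM scaling the log2 difference from the first set was 2.13 (SE 0.50). Llgl2, a lateral LGL protein, rose from a median of 5.68 to 21.9 and 114 FPKM (1.55, SE 0.58, and 3.47, SE 0.62). The call in libraries 4 to 6 was lost without any 1 of 7 libraries and with DESeq2 size factors (adjusted p 0.0632). Prkcz and Prkci, the atypical protein kinases C of the PAR complex, differed, with Prkcz higher in libraries 7 to 9 by 3.504 (SE 0.44) and Prkci lower (-1.77, SE 0.55, not under all 3 scalings). Pard3, Pard6b and Patj had medians of 1.54, 7.41 and 2.23 FPKM over all libraries, and of these only Pard3 was called by TMM, in libraries 4 to 6 against 1 to 3 (1.01, SE 0.42), a call lost without any 1 of 15 libraries. With library totals all 3 were called higher in libraries 7 to 9 than in 1 to 3 (1.48, 1.67 and 1.90), and Patj also than in 4 to 6. DESeq2 called Pard3 lower in libraries 7 to 9 than in 4 to 6 (-0.98, adjusted p 0.0376), as did edgeR without control 5 or control 7. Mpp5, or PALS1, stayed under 1 FPKM throughout and was lower in libraries 7 to 9 (-2.67, SE 0.95), a call lost without control 2.

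Of the 7 adherens junction genes, 0 were higher and 4 lower in libraries 4 to 6, and 1 higher and 5 lower in libraries 7 to 9, against libraries 1 to 3 (of all genes 34.1% and 21.8%, and 39% and 24.7%). Cdh1 was 362, 479 and 408 FPKM in control and 307, 230.4 and 185 FPKM in dDAVP libraries 1 to 3. The second set gave 10.0, 17.3 and 7.78 FPKM under control and 7.59, 6.15 and 4.79 FPKM under dDAVP, and the third 82.3, 13.6 and 21.8 FPKM under control and 14.1, 75.9 and 86.6 FPKM under dDAVP. No library of the later sets reached the lowest of the first, and the log2 differences were -5.07 (SE 0.45, edgeR adjusted p 4.7e-09) and -4.24 (SE 0.43, adjusted p 2.1e-07). Ctnna1 had medians of 261, 17.6 and 53.8 FPKM (-3.59, SE 0.36, and -3.60, SE 0.36), and Ctnnb1 of 349.7, 28.2 and 74.3 FPKM (-3.23, SE 0.39, and -3.22, SE 0.39). These 3 genes, E-cadherin and 2 of its catenins, were lower in both sets under all 3 scalings.

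Cdh16, or Ksp-cadherin, a cadherin of kidney epithelia, was the most abundant adherens junction gene over all libraries. It was 235, 318 and 369.8 FPKM in control and 256, 316 and 357 FPKM in dDAVP libraries 1 to 3, then 104, 172 and 139 FPKM under control and 81.0, 145 and 21.9 FPKM under dDAVP in the second set. The third gave 218, 492 and 93.1 FPKM under control and 601, 471 and 707 FPKM under dDAVP. It was lower in libraries 4 to 6 (-1.57, SE 0.42), and in libraries 7 to 9 its value of -0.81 (SE 0.42, edgeR adjusted p 0.0927) missed the threshold. That value passed with DESeq2 size factors (-1.02, adjusted p 0.0303), with DESeq2 (adjusted p 0.0155), without control 8 (-1.20, adjusted p 0.0197) and without dDAVP 7 (-1.29, adjusted p 0.00731), and with library totals it was 0.46. The ratio of Cdh16 to Cdh1 within a library was 0.65 to 1.93 in the first set, 4.56 to 23.6 in the second and 2.64 to 42.7 in the third.

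**Figure D5:**
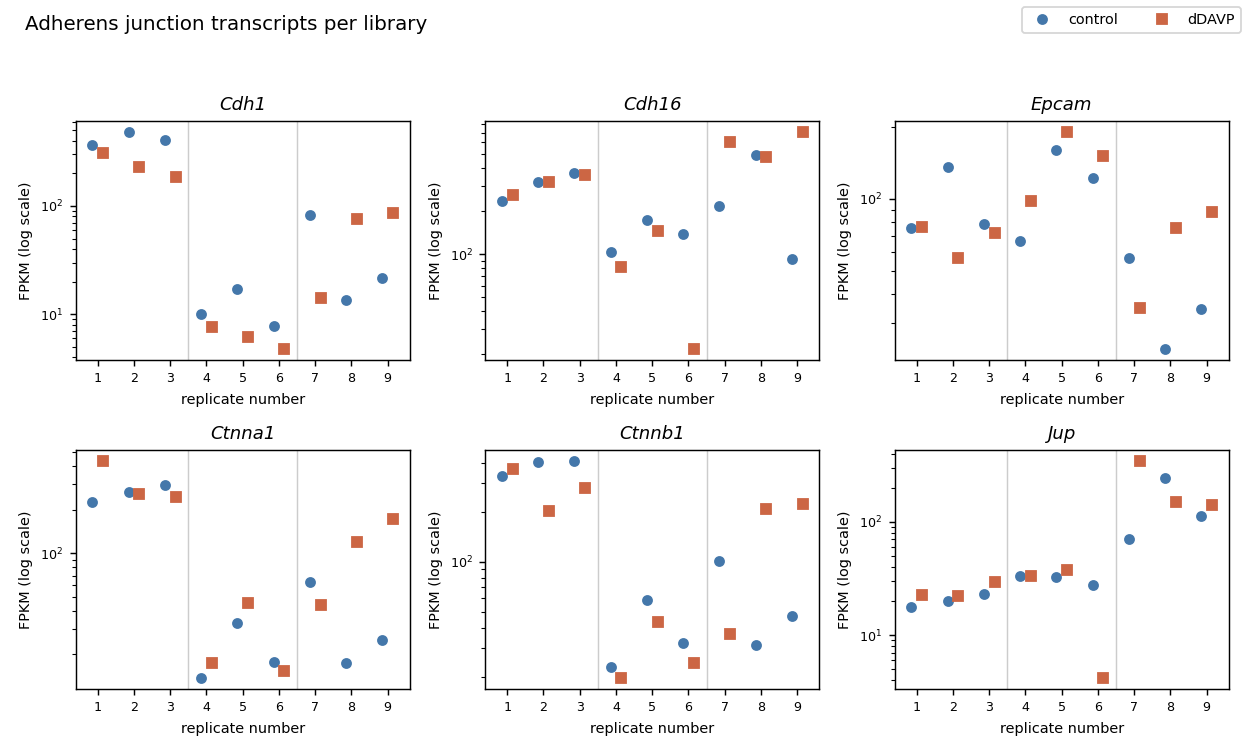
FPKM (log scale) of 6 adherens junction genes against replicate number, circles for control and squares for dDAVP, 1 point a library, with grey lines between the sets. Cdh1, Ctnna1 and Ctnnb1 are highest in libraries 1 to 3, Jup in libraries 7 to 9, and in libraries 7 to 9 the circles of control 8 and 9 lie with the square of dDAVP 7 for Cdh1 and Ctnnb1.

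Jup rose while beta-catenin, its close relative, was lower. Its lowest, median and highest FPKM were 17.6, 22.3 and 29.4 in the first set, then 4.19, 32.8 and 37.7 in the second, and 70.1, 147 and 345 in the third (1.93, SE 0.49, against the first set). The ratio of Ctnnb1 to Jup within a library was 9.19 to 20.2 in the first set, 0.591 to 5.78 in the second and 0.105 to 1.57 in the third. Epcam was 56.4 to 136 FPKM, 66.2 to 191 FPKM and 23.4 to 88.1 FPKM in the 3 sets, and was lower in libraries 7 to 9 than in 1 to 3 (-2.09, SE 0.38, not under all 3 scalings) and than in 4 to 6 (-2.94, SE 0.40). Ctnnd1, p120-catenin, had medians of 4.10, 2.28 and 2.37 FPKM and was called lower in libraries 7 to 9 (-2.13, SE 0.51), again not under all 3 scalings.

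The neighbouring junction lists also held calls in both directions, beside 34.1% of all genes higher and 21.8% lower in libraries 4 to 6, and 39% and 24.7% in libraries 7 to 9. Of 20 other tight junction genes, 9 were higher and 5 lower in libraries 4 to 6 than in 1 to 3, and 9 and 5 in libraries 7 to 9. Of 18 other adherens junction genes, 7 were higher and 3 lower in libraries 4 to 6, and 8 and 5 in libraries 7 to 9. Vcl, vinculin, was lower in both sets (-2.99 and -4.34), as was Afdn, afadin (-2.61 and -2.95). Of 6 desmosome genes, 1 was higher and 2 lower in both sets. Dsp, desmoplakin, was lower (-4.52 and -3.89), and Pkp3, a plakophilin, was higher by 1.84 and 4.28. Of the 2 other claudin genes tested, Cldn9 was lower in libraries 4 to 6 (-1.80) and higher in libraries 7 to 9 (1.27).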

How the data were processed

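Count and FPKM tables of 18 RNA-seq libraries were read. The deposited count table holds whole-number counts per gene symbol that the authors made; the submitters' processing notes name build mm10 and the tools HTSeq, SAMtools and STAR 2.4.0.1. The release of the gene annotation and the strand setting are not given in the sources used here. The deposited FPKM table scales those counts by gene length and library total, and served for levels between genes. Per the labels' protocols, libraries of 50 bp single-end reads were made from 20 ng of RNA, with a low-input kit and a single-cell style protocol both named.

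Counts were fitted over all genes with edgeR 4.0.16 (TMM factors, filterByExpr, quasi-likelihood F test, two-sided, Benjamini-Hochberg adjusted p under 0.05). The SE is the log2 fold change divided by the root of F. Normalised CPM use the TMM-scaled library total. Alternatives used DESeq2 1.42.0, DESeq2 size factors, library totals only, no filter, a filter of 1 CPM in 9 libraries, limma 3.58.1 (voom with sample quality weights, and log2 of FPKM plus 1 with genes of at least 1 FPKM in 9 libraries), each library left out, and the replicate number as a block. R 4.3.3, Python 3.11.15, pandas 2.3.3, numpy 2.4.6 and matplotlib 3.10.9 were used, and the fits were tested on simulated data. The closest 2 libraries of a group differed by a chi-square of 71.6 per degree of freedom, so none was counted as a duplicate within its group. Pairs of a control and a dDAVP library were not checked in this way. Positions are from GENCODE M21 on GRCm38, promoters from RefSeq on GRCm38.p6.

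The junction genes, the other lists and the sets were chosen with earlier results of these data known. Values in every library or by set are given for junction genes called in any fit, the 3 leading claudins of a set and the most abundant gene of each role; of the other lists, up to 3 called genes with the smallest adjusted p and 2 of the highest mean. The genes described one by one under dDAVP were chosen after their values were seen. Deviations from the group means correlated between libraries of equal number at r = 0.926, 0.837, 0.858, 0.807, 0.690, 0.640, 0.399, 0.554 and 0.418 for numbers 1 to 9. After removal of set means r lay between -0.706 and 0.430, so these values came mostly from the sets. The labels give no pairing, and these values do not establish one within the sets. The fits with the replicate number as a block therefore rest on an assumed pairing. Nothing says that replicates were separate cultures, and p-values measure only the spread between these libraries.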

Additional observations from a re-analysis of the deposited data

Results flagged for a closer look

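In groups of 9 libraries, the highest or lowest log2 CPM (with an offset of 1) was compared with its nearest neighbour by Dixon's ratio at its 95% critical value. Of 68 groups tested, 10 held a library that stood apart, where chance gives about 1 in 20.

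Of the 10, 5 were in dDAVP 7. There Cldn3 (11.31), Crb3 (8.91), Llgl2 (9.58) and Jup (10.37) were the highest of the dDAVP libraries, and Ctnnd1 (1.69) was the lowest. Cldn4 was highest in control 8 (9.59). Cldn12, a gene of low level, was lowest in dDAVP 3 (0.97, from 17 counts).

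Genes near 0 counts gave the other 3. Cldn1 was highest in control 6 (2.67) among control and in dDAVP 5 (2.51) among dDAVP libraries. Cldn2 was highest in dDAVP 6 (0.97), with at most 12 counts in any library.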

How the results depend on the processing

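The count of junction genes called with dDAVP was 0 in each edgeR fit. It stayed 0 over all 18 libraries without other terms, within libraries 4 to 6, within libraries 7 to 9 and in the interaction, under every alternative that was run. With the set term it became 1 of 32 with limma voom weights (Marveld1, 1.14, SE 0.18, adjusted p 0.000329), beside 118 of all 10121 genes. In libraries 1 to 3 it became 1 with DESeq2 (Marveld1, adjusted p 0.00482), 1 without a filter (Marveld1, 0.0231), 1 with the replicate block (Marveld1, 0.0332) and 5 with voom weights (Marveld1, Cdh1, Ctnnb1, Cxadr and Pard6b). These were of 31 junction genes tested, or 33 without a filter. Of all genes the same 4 settings called 123 of 8991, 207 of 13603, 101 of 8991 and 634 of 8991. Leaving out a library in this set gave 0 to 4. The 4 came without dDAVP 1 (Marveld1 1.17, Cdh1 -0.93, Cxadr -2.14 and Tjp1 -2.19), beside 774 of all genes. The cause of these changes was not tested.

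The counts over all genes moved more. Over all 18 libraries they went from 0 to 12 with DESeq2, 1 with the replicate block, 11 with voom weights and 2 on FPKM, and from 0 to 1 when leaving out a library (1 without control 9). With the set term they went from 8 to 5 with library totals only, 31 with DESeq2, 1 with the replicate block, 118 with voom weights and 4 on FPKM, and 4 to 9 without 1 library. In libraries 1 to 3 they went from 41 to 123 with DESeq2, 207 without a filter, 101 with the replicate block and 634 with voom weights, and 13 (without control 2) to 774 (without dDAVP 1). In libraries 4 to 6 they went from 0 to 1 with library totals only, 29 with DESeq2, 1 without a filter and 2 with voom weights, and 0 to 2 (without dDAVP 6). In libraries 7 to 9 they went from 0 to 7 with library totals only, 94 with DESeq2, 30 without a filter, 3 with the replicate block and 220 with voom weights, and 0 to 98 (without dDAVP 7). The interaction went from 0 to 104 with DESeq2 and 35 without a filter, and 0 to 45 (without dDAVP 7).

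Between sets, leaving out a library gave 15 to 20 junction genes called of 5164 to 5975 genes (4 to 6 against 1 to 3), 20 to 22 of 6031 to 6799 (7 to 9 against 1 to 3) and 15 to 20 of 4346 to 5267 (7 to 9 against 4 to 6). Of the junction gene calls, 14 of 19, 19 of 22 and 14 of 16 held without any 1 library. With library totals only, calls split into 5809 higher and 802 lower in libraries 7 to 9 against 1 to 3 (3945 and 2504 with TMM; junction genes 19 and 5), and into 5455 and 819 against 4 to 6 (2847 and 2034 with TMM; junction genes 19 and 3). That scaling changed signs with a call on one side: in libraries 7 to 9 against 1 to 3, Cgn became 1.31, Cgnl1 1.35, Marveld1 1.15 and Marveld2 1.44, and against 4 to 6, Ctnna1 became 1.48 and Ctnnd1 0.35. Against the median of all genes under the same scaling these 4 and 2 were -0.60, -0.56, -0.77, -0.47, -0.20 and -1.32. It also turned, in libraries 7 to 9 against 1 to 3, Cdh16 to 0.46 and Ocln to 0.34, and against 4 to 6, without a call, Cldn12, Cxadr, Pard3, Pard6b and Tjp1 to between 0.59 and 1.38. DESeq2 size factors turned values that neither scaling called: Cldn3 (-0.11) and Crb3 (-0.10) in libraries 4 to 6 against 1 to 3, Cldn12 (-0.01) and Pard3 (-0.12) in 7 to 9 against 1 to 3, and Ctnnb1 (-0.05) and Pard6b (0.05) in 7 to 9 against 4 to 6. The median share of Cldn3 among claudins, 49.1%, became 45.4% by CPM and 41.4% to 56.8% without 1 library. Cldn2 and Cldn10 had too few counts to test in any comparison, and Cldn1 could be tested within libraries 4 to 6 only (-0.31, SE 1.44).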
